A study of Homo sapiens with 16 samples.

Results

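The cystatins are protein inhibitors of cysteine proteases. The 8 genes described here, CST1, CST2, CST3, CST4, CST5, CST6, CSTA and CSTB, were taken by symbol from 63677 gene identifiers and were followed through all 16 libraries of 2 human colon cancer cell lines. All 8 passed the filter on low counts and were among the 17464 genes tested. Their identifiers in the tables are ENSG00000170373 (CST1), ENSG00000170369 (CST2), ENSG00000101439 (CST3), ENSG00000101441 (CST4), ENSG00000170367 (CST5), ENSG00000175315 (CST6), ENSG00000121552 (CSTA) and ENSG00000160213 (CSTB). The family was chosen by a reading of earlier results of these same libraries. Its levels and calls are therefore given as a description and not as independent evidence.

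SW480 is a line from a primary colon adenocarcinoma and SW620 is a line from a lymph node metastasis of the same patient. Messenger RNA was sequenced from parental cells of each line, from cells of each line transduced with an empty vector, and from cells of each line transduced with ERB. ERB is estrogen receptor beta, a transcription factor bound by estradiol and encoded by ESR2. Further libraries came from ERB-carrying SW620 cells kept 24 h in DMSO, the solvent, or given estradiol at 10 nM for 24 h. Each of the 8 groups held 2 libraries, numbered I and II, and all cells were grown in DMEM with serum. The labels do not state whether I and II were grown separately, and the spread behind each p-value may thus be technical. The vector, its promoter and the number of clones are not given in the sources used here.

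The 8 genes cover an intracellular and a secreted branch of the family. CSTA and CSTB (stefins A and B) are small proteins without a signal peptide that act inside the cell. CST1 (cystatin SN), CST2 (cystatin SA), CST3 (cystatin C), CST4 (cystatin S), CST5 (cystatin D) and CST6 (cystatin M/E) carry a signal peptide and are secreted. Cystatins bind papain-like enzymes such as the lysosomal cathepsins at the active site and block it. CST3 is made by most nucleated cells, the salivary cystatins CST1, CST2, CST4 and CST5 by glands, CSTA and CST6 largely by squamous epithelium, and CST1 is known as a gene raised in colorectal tumours. In the RefSeq order of genes on chromosome 20, CST3, CST4, the pseudogene CST2P1, CST1, CST2 and CST5 follow each other among the genes named as cystatins. CST6 lies on chromosome 11, CSTB on chromosome 21 and CSTA on chromosome 3.

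CST1, CST2 and CST4 are near-identical copies, which bears on every value given for them. In the GENCODE transcripts (GRCh38) their coding sequences of 426 bases had the same base at 376 positions. Pairwise identity was 91.3% for CST1 and CST2, 92.7% for CST1 and CST4, and 92.5% for CST2 and CST4. The other 5 members were less alike, with CST1 at 72.3% identity to CST3 and 71.8% to CST5. The stretch in which the 3 copies were most alike, bases 260 to 349 of the coding sequence counted from the start codon, had 1 differing position among 90, shown in capitals.
CST1: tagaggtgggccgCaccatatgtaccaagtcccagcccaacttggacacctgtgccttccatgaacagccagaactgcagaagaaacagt
CST2: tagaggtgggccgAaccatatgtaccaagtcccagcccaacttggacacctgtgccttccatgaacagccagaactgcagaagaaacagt
CST4: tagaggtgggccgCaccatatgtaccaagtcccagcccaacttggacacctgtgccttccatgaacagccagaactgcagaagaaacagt
CST1 and CST4 were the same throughout this window, so a read that falls within it cannot be assigned to either gene. Of the overlapping 50-base words of a full transcript, 27% of CST1, 8.3% of CST2 and 30.2% of CST4 occurred in another of the 3 copies. The sum of the 3 genes is therefore given beside each of them.

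A promoter sequence was at hand for CST3 and CST5, which lie on either side of the copies and behaved differently between the lines. The 250 bases before each start site are shown from RefSeq (GRCh38.p14), with capitals for a pair of motifs on either strand. The first is the GC box, GGGCGG. The other is a sequence related to the promoter element bound by TBP, ATAAA. The CST3 window is chr20:23637956-23638205 and the CST5 window is chr20:23879749-23879998, both on the minus strand.
CST3: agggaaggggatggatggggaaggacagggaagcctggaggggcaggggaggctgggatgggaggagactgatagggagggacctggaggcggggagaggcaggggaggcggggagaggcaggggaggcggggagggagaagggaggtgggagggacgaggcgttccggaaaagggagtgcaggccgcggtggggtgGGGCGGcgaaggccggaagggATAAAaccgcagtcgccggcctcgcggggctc
CST5: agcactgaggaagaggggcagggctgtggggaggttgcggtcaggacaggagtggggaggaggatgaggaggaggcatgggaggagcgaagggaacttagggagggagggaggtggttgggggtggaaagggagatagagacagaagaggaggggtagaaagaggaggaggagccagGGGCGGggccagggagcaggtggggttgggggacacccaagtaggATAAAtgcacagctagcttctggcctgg
Searched on both strands, each window held 1 GC box, which 42.6% of 35116 promoter windows of the same length held, and 1 ATAAA, which 32.7% held. Neither held TATAAA (10.7% of windows), of which ATAAA is a part, the palindromic estrogen response element (0.0399%), its half-site AGGTCA (12.1%) or the AP-1 motif TGANTCA (6.57%). The GC content was 70.8% for CST3 and 62.4% for CST5. These matches describe letters in a window and show no binding.

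Total counts ran from 12743940 to 18948283 per library, so that 3 reads were worth 0.128 to 0.342 CPM after scaling. Levels are CPM, read counts relative to library size after TMM scaling, and fold changes are from edgeR's quasi-likelihood fit, with a gene called at an adjusted p under 0.05. ESR2 had 100 to 187 reads in the libraries labelled ERB and 0 to 4 in the others. Libraries labelled SW480 with a vector stood apart from the parental line. Of 298 genes high in both parental SW480 libraries (at least 5 CPM and 8 times the higher SW620 library, the cystatins left out), the median level was 2.22% and 2.1% of the parental SW480 mean in the SW480 empty vector libraries. It was 1.42 to 2.04% in the 10 SW620 libraries and 16.8% and 20.9% in the SW480 ERB libraries. Of 35 genes high in parental SW620 by the same rule, the median level was 28.8% and 66.2% of the parental SW620 mean in the libraries labelled SW480 empty vector, 54.4% and 48.3% in those labelled SW480 ERB and 4.58% and 5.59% in parental SW480. On the first measure the libraries labelled SW480 empty vector were near the SW620 libraries, which goes against their line label. On the second they lay between the parental lines. The libraries labelled SW480 ERB lay between the parental lines on both measures and thus matched neither. The group names are kept below as the labels give them, and every difference that involves them is between libraries carrying those labels. SW480 empty vector II also had 6597 CPM in 15 amino acid and ER stress genes, against 1082 in its partner. The same sum was 4257 to 4409 with DMSO, 6513 to 6736 with estradiol and 951 to 1187 in the other libraries. Of the colon epithelium markers, VIL1 (98.8 to 655 CPM), KRT18 and EPCAM were present in all libraries, whereas CDX1 had 0 reads and KRT20 had 40 reads over all 16. The leukocyte gene TYROBP and the stromal and endothelial genes COL3A1 and PECAM1 had 0 reads. Other genes of the same lists did have reads. Over all 16 libraries, the leukocyte genes LAPTM5, CD14 and CD79A had 2021, 151 and 96. The stromal and endothelial genes COL1A1, LUM and VWF had 923, 610 and 285.

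By FPKM, CST1 was the most abundant cystatin in the parental SW480 and SW480 ERB libraries, but not with empty vector. Its level was 598 and 183 CPM in the 2 parental SW480 libraries, 8.56 and 39 CPM with empty vector and 1447 and 867 CPM with ERB. In the 10 SW620 libraries it ran from 0.0577 to 0.663 CPM, with a median of 0.23 CPM and 1 to 11 reads. The SW480 groups did not overlap each other, in the order ERB, parental and empty vector, and every SW480 library was above every SW620 library. In such bulk samples, fewer cells with the transcript and less of it per cell cannot be told apart. On the FPKM scale, which allows for transcript length, CST1 averaged 1402 ± 209 (SD, n = 2) in SW480 ERB cells and 743 ± 487 (SD, n = 2) in parental SW480. It ranked 218th and 297th among 63655 genes there, and 17819th in parental SW620.

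CST2 and CST4 had the same order of groups at lower levels. CST2 was at 85.1 and 13 CPM in parental SW480, 0.451 and 0.668 CPM with empty vector and 97 and 53.4 CPM with ERB. Parental and ERB libraries of CST2 overlapped. CST4 was at 20.1 and 4.97 CPM in parental SW480, 0.0751 and 2 CPM with empty vector and 46 and 32.9 CPM with ERB, without overlap between groups. Over the 10 SW620 libraries together, CST2 had 4 reads and CST4 had 8. The sum of the 3 copies was 703 and 201 CPM in parental SW480, 9.09 and 41.6 CPM with empty vector and 1590 and 954 CPM with ERB.

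CST5 and CST6 were lower and shared the low level in SW620. CST5 was at 16.1 and 4.89 CPM in parental SW480 and 7.18 and 5.65 CPM with ERB, and had 0 reads in both SW480 empty vector libraries. It had 3 reads over all 10 SW620 libraries. CST6 was at 9.45 and 1.48 CPM in parental SW480, 0.15 and 1.22 CPM with empty vector and 2.74 and 0.764 CPM with ERB, where groups overlapped except parental against empty vector. The SW620 libraries held 0 to 5 reads of CST6 each.

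CST3 and CSTB were present at high level in every library of both lines. CST3 was at 262 and 117 CPM in parental SW480, 176 and 1015 CPM with empty vector, 738 and 410 CPM with ERB, and 171 to 274 CPM in the 6 untreated SW620 libraries. CSTB ranged from 57.2 to 204 CPM over all 16, the narrowest of the family as a ratio of highest to lowest level. By FPKM, CST3 exceeded CST1 in every library but those of parental SW480 and SW480 ERB, and averaged 265 ± 52.8 (SD, n = 2) in parental SW620, where CSTB averaged 51.9 ± 7.13 (SD, n = 2). CSTA had 0 or 1 read in each of the 12 untreated libraries of both lines.

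**Figure D1:**
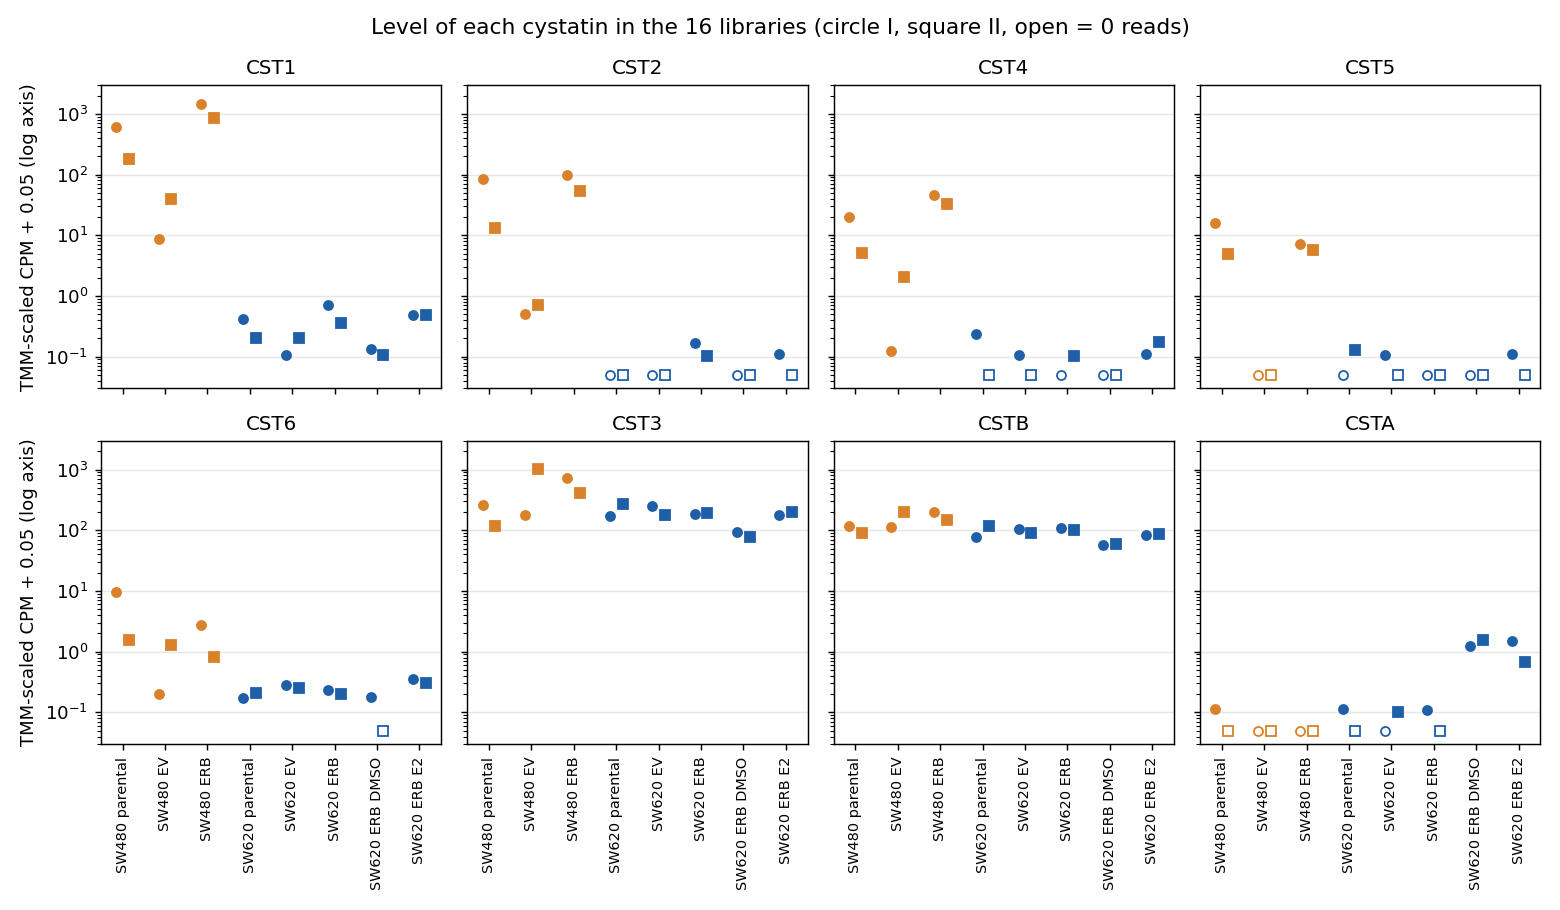
Level of the 8 cystatins in each library, as TMM-scaled CPM plus 0.05 on a log axis; circles are library I, squares library II, orange SW480, blue SW620, and open symbols have 0 reads. CST1, CST2, CST4 and CST5 are near the bottom in SW620, CST3 and CSTB stay between 57.2 and 1015 CPM, and CSTA appears with DMSO and estradiol.

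The 2 deposited tables split the copies differently. In the counts, CST4 took 2.85% and 2.48% of the 3-gene sum in parental SW480 and 2.89% and 3.45% in SW480 ERB cells. In the FPKM values it took 11.3% and 12% in parental SW480 and 11.9% and 12% with ERB. Each FPKM of CST4 in parental SW480 stood on 2.04 reads, against 9.34 for CST1, 9.81 for CST2, 12 for CST5, 11.7 for CST6 and 13.8 for CST3. Genes whose annotated transcripts had a median length of 650 to 850 bases had a median of 24.1 reads per FPKM there (quartiles 13.3 and 41.2). The transcripts expressed from those genes can be longer, so this is a loose reference for the short cystatins. With ERB the value was 1.99 for CST4 and 5.28 for CST2. The level of CST4 relative to CST1 and CST2 thus depended on the table, while the sum was led by CST1 in both, at 85.1 and 91% of reads and 79.6 and 78.9% of FPKM in parental SW480.

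**Figure D2:**
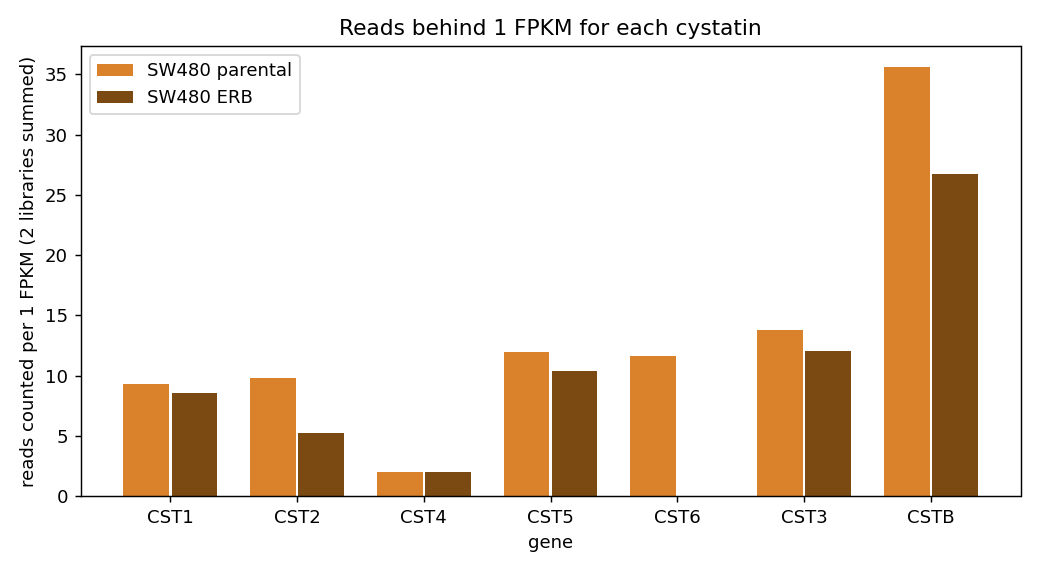
Reads counted per 1 FPKM for each cystatin in parental SW480 and SW480 ERB cells, with the 2 libraries of a group summed. Bars start at 0, and CST6 has no bar with ERB because it had under 100 reads. CSTB has the longest median length of annotated transcripts, and CST4 is lowest at 2.04 and 1.99.

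The parental lines differed in 5 of the 8 members, all lower in SW620, where 18% of all tested genes were called in either direction. These 5 passed the filter on low counts only through SW480 libraries. CST1 was 1285-fold lower in SW620 by reads (95% counting interval 652 to 2977), with a log2 fold change of -10.44 ± 1.01 (SE) and an adjusted p of 5.72e-05 (edgeR). CST2 had 0 reads in parental SW620 and was at least 414-fold lower there, with 3 reads taken as the group's floor. CST4 was 108-fold lower (36.9 to 528) on 3 reads and CST5 276-fold lower (49.2 to 10914) on 1 read, intervals that cover counting error only. CST6 fell by 5.21 ± 1.16 (SE) on the log2 scale (edgeR, adjusted p = 0.00828). Without parental SW620 library II the calls of CST4 and CST6 were lost (adjusted p = 0.0546 and 0.0749), and the latter also without library I. The sum of the copies had a log2 fold change of -10.22 ± 1.02 (SE, adjusted p = 6.9e-05 by edgeR). CST3 at 0.23 ± 0.63 (SE) and CSTB at -0.12 ± 0.31 (SE) were not called. The median log2 fold change was -6.03 over the 8 members and -0.05 over all tested genes.

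With empty vector against parental cells in SW480, the same number of members, 5 of 8, was called lower, beside 30.9% of all tested genes called. CST1 was 17.1-fold lower by reads (15.5 to 18.7), with a log2 fold change of -4.05 ± 0.72 (SE, adjusted p = 0.002 by edgeR). CST2 was 79.6-fold lower (45.5 to 154) and CST4 13.2-fold lower (8.33 to 22.1). CST5 was at least 70.7-fold lower and CST6 8.2-fold lower (4.68 to 15.7). For CST1, leaving out empty vector library II, which had the high sum of stress genes, gave -5.52 ± 0.78 (SE) and leaving out library I gave -3.33 ± 0.68 (SE), both called by edgeR. CST6 was no longer called without empty vector library I (adjusted p = 0.102, edgeR), and neither CST4 (0.0884) nor CST6 (0.284) was called without parental library I, the higher one for all 5 genes. A fit of the 6 SW480 libraries alone called 2 of 7 tested members, CST2 and CST5, with CST1 at -4 ± 0.94 (SE, adjusted p = 0.0538 by edgeR). With offsets for GC content and length, the same libraries called all 5, with CST1 at -4.6 ± 0.55 (SE, adjusted p = 0.000995 by edgeR). The share of all genes called was not taken for either fit of these 6 libraries. CST3 at 1.65 ± 0.64 (SE) and CSTB at 0.56 ± 0.32 (SE) were not called. For CST3 this rested on empty vector library II: without it the log2 fold change was -0.12 ± 0.47 (SE), and without library I it was 2.41 ± 0.46 (SE) and called (adjusted p = 0.0018, edgeR). The median log2 fold change was -3.38 over the 8 members and -0.11 over all tested genes. In SW620, empty vector against parental cells gave 0 called members among 0% of genes called, with 276 genes and 0 members under an unadjusted p of 0.05. The difference of the vector effect between the lines was tested directly and called no member, beside 7.2% of all genes. All members but CST3 and CSTB had 0 to 8 reads in each of the 2 SW620 groups, too few to decide on a difference. CST2, with 0 reads in both, had an SE of 13298.5. For the sum the difference was -2.77 ± 1.57 (SE, adjusted p = 0.253 by edgeR).

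With ERB against empty vector in SW480, 3 of 8 members were called, all higher, where 1.1% of all tested genes were called. These were CST1, CST2 and CST5. CST1 was 52.9-fold higher by reads (48.2 to 58.1), with a log2 fold change of 5.61 ± 0.78 (SE, adjusted p = 0.00394 by edgeR). CST2 was 132-fold higher (75.2 to 256) with 7.08 ± 1.02 (SE, adjusted p = 0.0121 by edgeR). CST5 was at least 46.6-fold higher (adjusted p = 0.0147, edgeR). CST4 had a log2 fold change of 5.34 ± 1.12 (SE) and an adjusted p of 0.0505 by edgeR. The sum was called at 5.65 ± 0.8 (SE, adjusted p = 0.00445 by edgeR). CST3, CST6, CSTA and CSTB were not called. Without empty vector library II, CST1 stood at 7.01 ± 0.83 (SE) and CST4 was called too (adjusted p = 0.0139, edgeR). CST2 lost its call without empty vector library I or ERB library I (adjusted p = 0.0585 and 0.0524), and CST5 without either ERB library (0.063 and 0.0513). A fit of the 6 SW480 libraries alone called 0 of 7 tested members, with CST1 at 5.57 ± 1.02 (SE, adjusted p = 0.216 by edgeR). With offsets for GC content and length, the same 6 libraries gave CST1 at 5.37 ± 0.57 (SE, adjusted p = 0.00503 by edgeR) and also called CST2, CST4 and CST5 (0.00659, 0.0244 and 0.0131). For neither fit of the 6 libraries was the share of all genes called taken. The empty vector libraries are the control of this comparison and the treated side of the one before, so both share them. The median log2 fold change over the 8 members was 3.37, and -0.07 over all tested genes.

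Against parental cells, SW480 cells with ERB had 0 of 8 members called, where 44.4% of all genes were called and 3 members had an unadjusted p under 0.05 (edgeR). DESeq2 called CST3 alone (adjusted p = 0.0407). CST1 was at 1.57 ± 0.65 (SE, adjusted p = 0.0651), CST3 at 1.6 ± 0.64 (SE, adjusted p = 0.059) and CSTB at 0.74 ± 0.32 (SE, adjusted p = 0.0722) on the log2 scale by edgeR. CST4 was at 1.66 ± 0.91 (SE), CST5 at -0.7 ± 0.64 (SE) and CST6 at -1.67 ± 0.89 (SE). Without parental library I, CST1 was called at 2.6 ± 0.78 (SE, adjusted p = 0.0216 by edgeR), and CST2 and CST3 were called too. Set against the 298 genes high in parental SW480, whose median in SW480 ERB cells was 20.2% of parental, CST1 stood at 296%, CST4 at 315% and CST2 at 153%. Of the 298 genes, 0 were as high as CST1 or CST4 and 1 was as high as CST2. CST5 at 61.3% was reached by 18 of them and CST6 at 32% by 95. With empty vector, where that median was 2.14%, CST1 stood at 6.08%, CST4 at 8.3%, CST6 at 12.6% and CST2 at 1.14%, and 77 of the 298 were at or above CST1. The parental level of the cystatins was itself uneven. In parental library II, CST1 was at 46.8% and CST2 at 26.5% of the parental mean, with 297 and 298 of the 298 genes at or above. CST4, CST5 and CST6 had 4.97, 4.89 and 1.48 CPM there, under the 5 CPM asked of the 298.

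**Figure D3:**
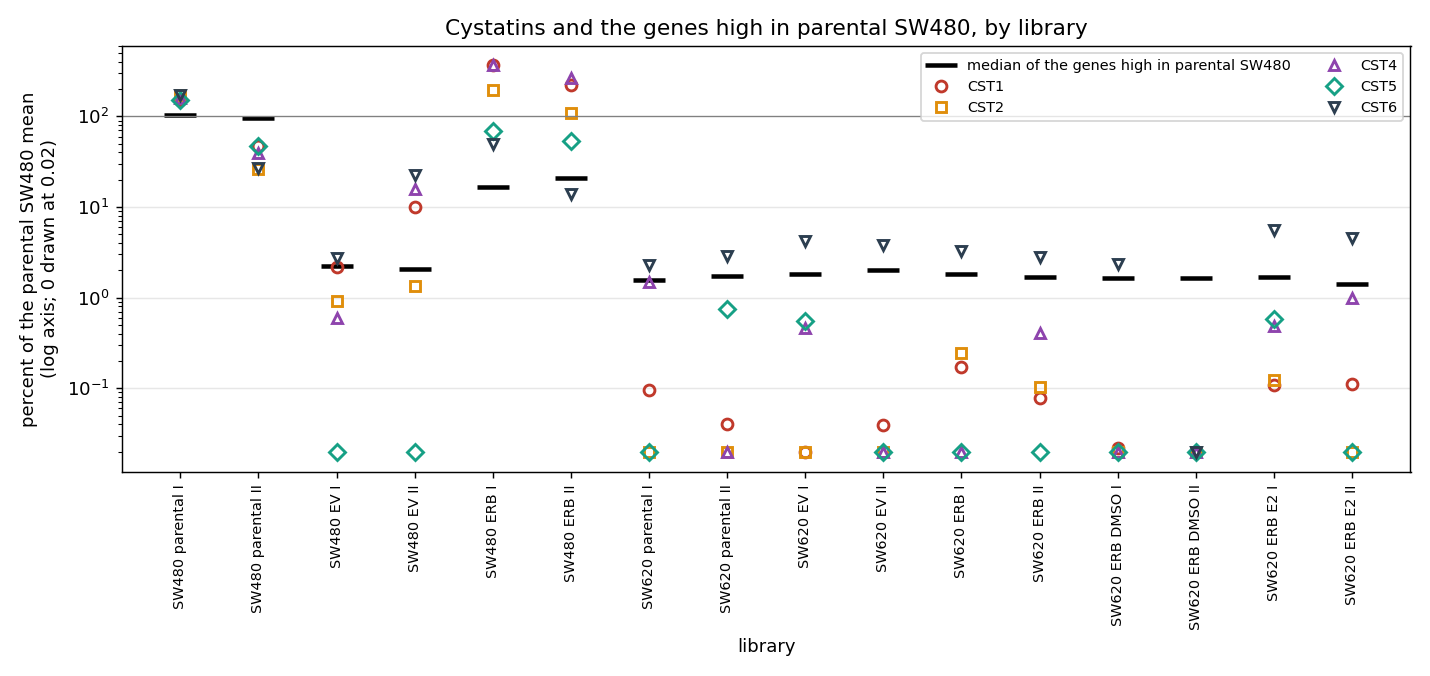
Level of 5 cystatins in each library as a percent of the parental SW480 mean on a log axis, with 0 drawn at 0.02; black bars mark the median of 298 other genes high in parental SW480. In SW480 ERB libraries CST1, CST2 and CST4 are above 100% while the black bars are at 16.8 and 20.9%, and in SW480 empty vector libraries the bars are at 2.22 and 2.1%.

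Between the lines at equal transduction, SW480 was higher for 1 of 8 members with empty vector, where 0.326% of genes were called, and for 4 of 8 with ERB, where 2% were called. With empty vector this was CST1, at 464 reads against 4, or 190-fold (73.8 to 701), with an adjusted p of 0.00737 (edgeR). That call was lost without either SW620 empty vector library (adjusted p = 0.127 and 0.0914). With ERB the called members were CST1, CST2, CST4 and CST5. CST1 had 24045 reads against 17, or 2348-fold (1466 to 4031), and a log2 fold change of 11.23 ± 1.01 (SE, adjusted p = 0.000154 by edgeR). CST2 was 858-fold higher (293 to 4163) on 3 SW620 reads, and CST5 at least 75.8-fold higher. Without either SW620 ERB library CST2, CST4 and CST5 were no longer called. CST6 at 34 reads against 6 was 9.41-fold higher (3.9 to 27.4) and not called.

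In SW620, ERB against empty vector called 0 members, where 0.00573% of genes were called, with 94 genes and 0 members under an unadjusted p of 0.05 (edgeR). The 3 copies together had 13 and 8 reads with ERB against 2 and 3 with empty vector, a 4.23-fold difference (1.55 to 14.4) with an adjusted p of 1. CST3 at -0.17 ± 0.63 (SE) and CSTB at 0.09 ± 0.31 (SE) were the members with many reads. The difference of the ERB effect between the lines called no member, beside 0.189% of all genes. All members but CST3 and CSTB had 0 to 17 reads in each of the 2 SW620 groups, too few to decide on a difference. For the sum the difference was 3.61 ± 1.56 (SE, not called by edgeR). A call in SW480 and none in SW620 is therefore not shown as a difference between the lines in this fit, and limma on FPKM called 2 to 4 members for it. The share of all genes that limma called was not taken.

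**Figure D4:**
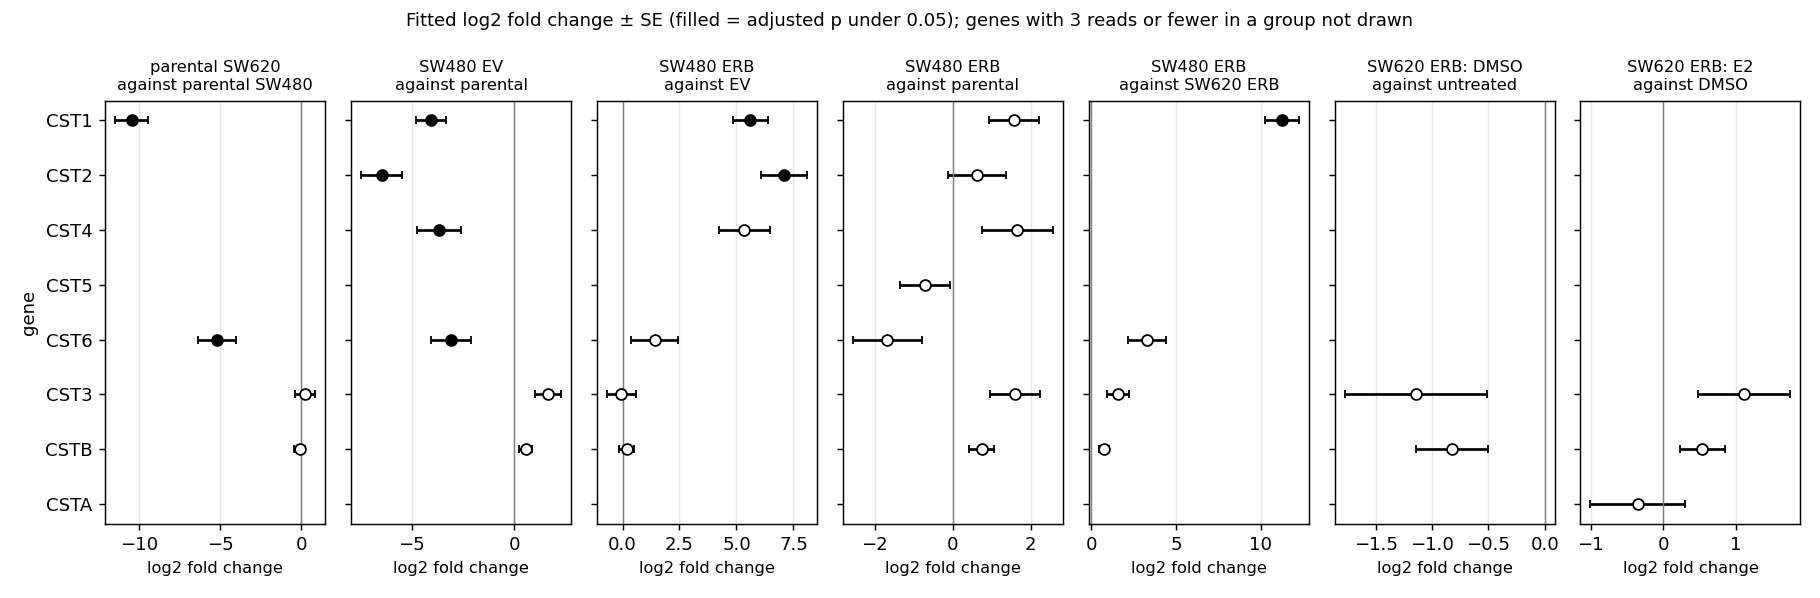
Fitted log2 fold change with its SE for each cystatin in 7 comparisons, filled where the adjusted p was under 0.05; genes with 3 reads or fewer in a group are not drawn and the x axes differ in range. CST1, CST2, CST4 and CST6 fall with empty vector in SW480, CST1 and CST2 are higher with ERB than with empty vector, and CST3 and CSTB are open in every panel.

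CSTA, the stefin of squamous epithelium, had more than 1 read only in the 4 SW620 ERB libraries with DMSO or estradiol. It had 28 and 26 reads with DMSO, or 1.19 and 1.5 CPM, and 24 and 10 reads with estradiol, or 1.47 and 0.627 CPM. Untreated SW620 ERB cells had 1 and 0 reads, and the other 10 libraries had 0 or 1. Against untreated cells DMSO gave a 48-fold higher level (8.26 to 1931) on 1 untreated read, with an adjusted p of 0.0213 by edgeR. CSTA passed the filter on low counts only through the libraries with DMSO or estradiol, where it was high. In the comparison of DMSO with untreated cells it was the 1 member called of 8, where 6.15% of genes were called. The call was lost when any 1 of the 4 libraries was left out (adjusted p = 0.109 to 0.196). With estradiol against untreated cells, 0 members were called beside 1.73% of genes, and CSTA was 38.2-fold higher (6.4 to 1551) at an adjusted p of 0.0523 by edgeR, while DESeq2 called CSTA. Estradiol against DMSO called 0 members among 0% of genes, with 3469 genes and 0 members under an unadjusted p of 0.05. CSTA there was at -0.35 ± 0.65 (SE). Each pair of these comparisons shares 1 group of libraries. The 3 near-identical copies together had 21 reads untreated, 3 with DMSO and 18 with estradiol. DMSO was 7.87-fold lower than untreated (2.35 to 41.2) and estradiol 7.57-fold higher than DMSO (2.21 to 40.1), neither called.

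The 4 libraries with more than 1 CSTA read also had high stress genes. Of 15 amino acid and ER stress genes, 9 were called higher with DMSO and 8 with estradiol, each against untreated cells. SW480 empty vector II had a sum of these genes of 6597 CPM, as high as with estradiol, and 0 reads of CSTA. Of the keratinocyte markers, TP63 and KRT1 had 0 reads in all libraries, KRT14 had 6 in all, and KRT5 was 1.1 to 2.26 CPM in the treated libraries against 12 and 11.7 CPM in untreated SW620 ERB. KRT10, the most abundant marker of the list in these libraries, was at 38.6 and 42.1 CPM with DMSO and 53.5 and 52.1 CPM with estradiol, against 39.2 and 32.1 CPM untreated. The sum of the 8 markers was 39.8 to 55.1 CPM treated and 51.4 and 43.9 CPM untreated. Of 16 cornified envelope and transglutaminase genes, 5 were tested, and TGM5, a transglutaminase, was the 1 called with DMSO, at -2.93 ± 0.49 (SE, adjusted p = 0.00882 by edgeR). Whether stress or growth conditions had a part in the level of CSTA was not tested.

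CST3 and CSTB were lower with DMSO than in untreated SW620 ERB cells, at 93.4 and 79 against 188 and 193 CPM for CST3 and 57.2 and 60.3 against 107 and 101 CPM for CSTB. With estradiol CST3 was at 177 and 197 CPM and CSTB at 82.7 and 88.2 CPM. Neither was called against untreated cells (edgeR, log2 fold changes of -1.14 ± 0.63 and -0.82 ± 0.32, SE, adjusted p = 0.25 and 0.122). A fit of the SW620 libraries alone, with its smaller spread, called both lower (adjusted p = 0.00301 and 0.00519) and called both higher with estradiol than with DMSO (0.00687 and 0.0274). With offsets for GC content and length in that fit, CSTB stayed called against untreated (-0.78 ± 0.16, SE, adjusted p = 0.00189 by edgeR) and CST3 did not (-0.3 ± 0.14, SE, adjusted p = 0.0915).

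The lowest and the highest level of CST3 fell in the libraries with the lowest and the highest share of reads in GC-rich genes. The GC-richest 10% of genes took 4.53% of reads in the library with the lowest CST3, DMSO II, and 14% in that with the highest, SW480 empty vector II. It took 5.66% in SW480 empty vector I, where CST3 was 176 CPM, and 13.8% and 11.3% in the SW480 ERB libraries. The CST3 transcript has 64.1% GC, CST6 67.1%, CST1 57.8%, CSTB 52.4% and CSTA 37.3%. With offsets for GC content and length, the log2 fold change of CST3 for SW480 ERB against parental went from 1.6 to 0.31 ± 0.24 (SE), and for DMSO against untreated from -1.14 to -0.33 ± 0.24 (SE). CST3 for SW480 empty vector against parental went from 1.65 to 0.67 ± 0.24 (SE) and was then called (adjusted p = 0.0381, edgeR). CSTB went from 0.74 to 0.78 ± 0.27 (SE) for SW480 ERB against parental, from 0.56 to 0.82 ± 0.28 (SE) for SW480 empty vector against parental and from -0.82 to -0.79 ± 0.28 (SE) for DMSO against untreated. It was then called in SW480 with ERB and with empty vector against parental (adjusted p = 0.0365 and 0.0279, edgeR). By FPKM, CSTB averaged 56.9 ± 10.4 (SD, n = 2) with empty vector, 69.7 ± 1.03 with ERB and 56.6 ± 2.06 in parental SW480. The rise with empty vector was thus absent by FPKM. TMM factors were 0.978 and 0.585 with empty vector, 0.622 and 0.85 with ERB and 1.02 and 1.21 in parental SW480. Their part in the calls was not tested. CST6 for SW480 ERB against parental went from -1.67 to -3.03 ± 0.59 (SE) and was then called (adjusted p = 0.00193, edgeR).

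**Figure D5:**
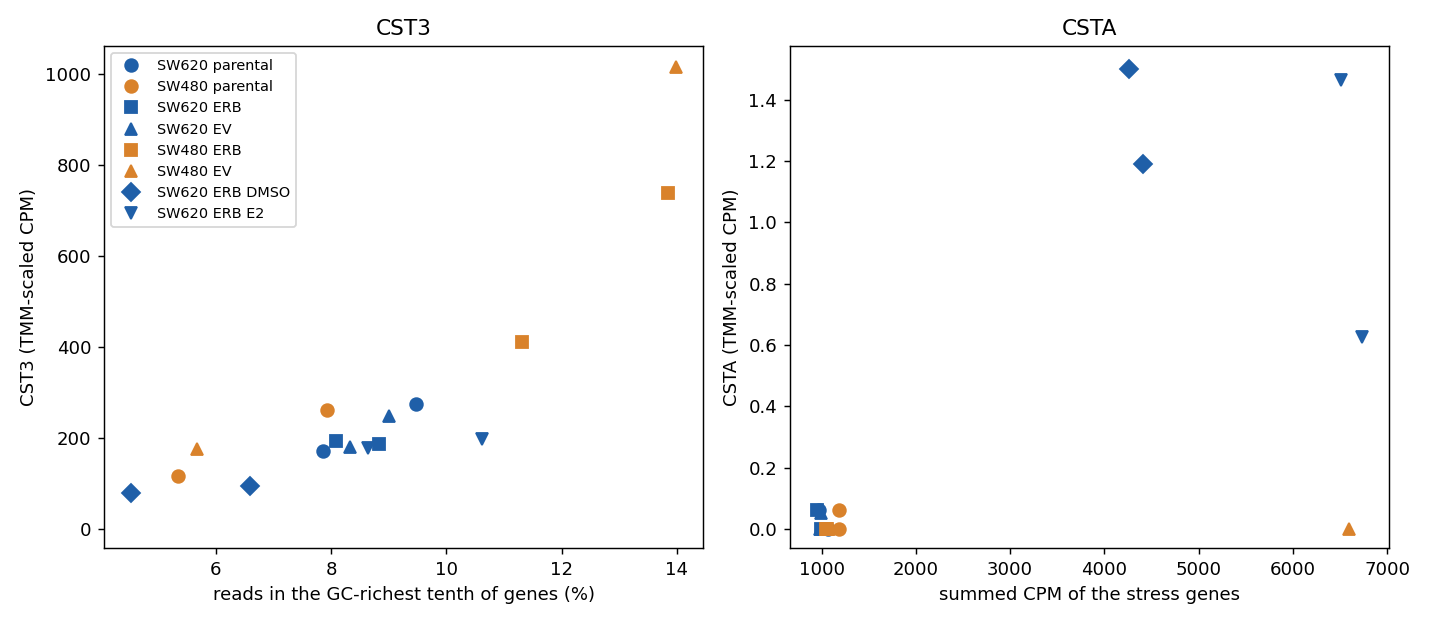
CST3 level against the percent of reads in the GC-richest 10% of genes (left) and CSTA level against the summed CPM of 15 stress genes (right), 1 point per library, orange SW480 and blue SW620, with shapes for the state. CST3 is highest, at 1015 CPM, where the GC-rich share is 14%, and CSTA is at 0 in the SW480 library with a stress sum of 6597 CPM.

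The enzymes that cystatins inhibit were compared through a list of 12 cysteine cathepsins and legumain, of which 9 were tested. In parental SW620 against SW480, 1 was called higher and 4 lower. CTSS, an endolysosomal cathepsin of antigen-presenting cells, was at 0.062 and 0.0779 CPM against 24.4 and 49.7 CPM, a log2 fold change of -8.91 ± 0.92 (SE, adjusted p = 0.000108 by edgeR). CTSL and CTSZ were also lower, and CTSC, an activator of granule proteases, was higher at 1.26 ± 0.31 (SE, adjusted p = 0.014 by edgeR). Against parental SW480, empty vector cells had 4 of 9 cathepsins lower and ERB cells 4 of 9 lower, where 30.9% and 44.4% of all tested genes were called in either direction, so the share with ERB was at the background. CTSL was at 52.6 and 35 CPM in parental SW480, 3.91 and 2.11 CPM with empty vector and 8.33 and 8.55 CPM with ERB. CTSS had 0 reads in the SW480 empty vector libraries and was at 0.342 and 1.53 CPM with ERB. With ERB, CST1 was above its parental level, though not called, while CTSS and CTSL were below theirs. Other cathepsins differed from that pattern. CTSB was at 564 and 402 CPM with ERB against 607 and 335 CPM in parental SW480. CTSC was at 199 and 256 CPM against 135 and 153 CPM, with 0 of 9 called higher. With ERB against empty vector 0 of 9 were called.

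Among 14 other genes of the cystatin superfamily, CST7 (leukocystatin) alone passed the filter, and the rest had 0 to 15 reads over all 16 libraries. CST7 ranged from 23.3 to 245 CPM and was called in no comparison. Its highest values were in SW480 empty vector II (245 CPM), estradiol (190 and 219 CPM) and DMSO (127 and 98.2 CPM), the libraries with high stress genes. SW480 empty vector I had 28.8 CPM. Parental SW620 II was close to the lower DMSO library, at 95.7 CPM, with a stress gene sum of 1066 CPM. Of 14 secreted matrix proteases and their inhibitors, 10 were tested. In parental SW620 against SW480, 8 were lower, with MMP14, a membrane-bound matrix protease, at -4.9 ± 0.56 (SE) and TIMP3, an inhibitor of matrix proteases, at -2.38 ± 0.35 (SE). With ERB against empty vector in SW480, TIMP3 was higher at 2.51 ± 0.37 (SE, adjusted p = 0.00615 by edgeR). It was at 21.9 and 14 CPM in parental SW480, 1.58 and 1.34 CPM with empty vector and 7.75 and 8.94 CPM with ERB.

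The squamous keratin KRT5 was high in the groups in which the copies were high. The summed level of 8 keratinocyte markers was 906 and 504 CPM in parental SW480, 49.1 and 76.4 CPM with empty vector, 557 and 374 CPM with ERB and 35 to 55.1 CPM in SW620. KRT5 carried most of it, at 851 and 470 CPM in parental SW480 and 492 and 322 CPM with ERB. KRT13 was at 5.56 and 2.62 CPM in parental SW480, 0.15 and 0.668 CPM with empty vector and 11.9 and 7.1 CPM with ERB. KRT4 was at 0.556 and 0.262, 0 and 0.445, and 2.62 and 1.76 CPM in the same groups. KRT10 differed less, at 48.8 and 31.2, 35.7 and 39.2, and 50.7 and 42.5 CPM. For DSG3, TP63 and KRT1 the 16 libraries together had 1, 0 and 0 reads. The part of these markers in the differences of the cystatins was not tested.

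Across the 16 libraries, log2 levels of the secreted cystatins other than CST3 had like patterns. Pearson's r was 0.97 between CST1 and CST2, 0.96 between CST1 and CST4, 0.88 between CST1 and CST5 and 0.86 between CST1 and CST6, values that share the gap between lines and, for the copies, stretches of identical sequence. CST3 and CSTB had an r of 0.95. These are descriptions over libraries that share groups and depth. The genes whose pattern was most like that of CST1 were KRT3 (r = 0.99), SPARC (0.98) and ZAP70 (0.97). For CST2 and CST4 they were CACNG6 and KRT3 with ADAMTS8 or CD70, for CST5 HRCT1, CHST2 and PRRX2, and for CST6 ELFN2, PLAUR and MYO1C. CST3 was most like BCKDK, NDUFAF3 and RALY (0.99 each), and CSTB most like CNN2, APEH and QARS. CSTA was most like PARP6, SETD4 and SPINK1, at 0.95 each.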

How the data were processed

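Poly(A) RNA from SW480 and SW620 cells was sequenced after stranded library preparation, per the labels' protocols. Sample titles gave each library's group and number. As units, the authors deposited raw read counts and FPKM values of each gene, and every value column belonged to 1 of the 16 libraries. The submitters' processing notes name GRCh37 and, in no stated order, Cufflinks 2.1.1, HTSeq 0.6.1, TopHat2 2.0.4, Picard 1.29 and SAMtools. Which tool made which table, whether counting used strand and how reads shared by copies were handled are not given in the sources used here.

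The members and lists were chosen with earlier results of these data known. Counts were filtered with filterByExpr, scaled by TMM and fitted over all 16 libraries in 1 quasi-likelihood model of 8 groups (edgeR 4.0.16, R 4.3.3), with Benjamini-Hochberg adjustment over all 17464 tested genes in each of 11 comparisons and 2 differences between lines; p-values are two-sided. The sum of the copies replaced their rows in a second fit. SEs came from the F statistic. Named genes were all members, up to 4 called genes per list and comparison by p, and the 3 genes per member with the highest Pearson r of log2 CPM (prior count 2). Folds from reads use effective library sizes, exact 95% intervals that cover counting error only, and a floor of 3 reads over the group at 0 reads. Alternatives were RLE factors, other low-count filters, DESeq2 1.42.0, limma 3.58.1 on log2 FPKM with pseudocounts of 1 and 0.1, smaller sets of libraries, a replicate block and leaving out each library. Offsets for GC content and length (splines, 5 degrees of freedom) were added after seeing the data. The fits were tested on simulated data.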

Additional observations from a re-analysis of the deposited data

How the results depend on the processing

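Of 284 alternative values for the 19 member calls, 249 kept the call and 0 reversed it, and of 1283 values uncalled under both settings, 105 had the other sign. Counts below are members called of those that passed the low-count filter. The share of all genes called was not taken for these alternative settings, so their counts have no background beside them. All 8 passed in the main fit, and fewer passed in some smaller sets of libraries. Log2 fold changes are of the sum of CST1, CST2 and CST4. Unless stated, the cause of a change was not tested. For empty vector against parental SW480, 2 of 7 tested members were called with only the libraries of the line (sum -4.12). With a replicate block, 3 of 8 were called. Replicate numbers were not shown to pair libraries (9 of 28 group pairs had a correlation of deviations over 0.1, range -0.738 to 0.655). For ERB against empty vector in SW480, 0 of 7 tested members were called with only the groups compared (sum 5.65). The line's libraries alone also called 0 of 7 (sum 5.61). Both fits hold fewer libraries. For ERB against parental SW480, 4 were called with no filter (sum 1.35), 1 with DESeq2 and 2 with GC and length offsets. These offsets in the line's libraries called 1 of 7 tested members. For SW480 against SW620 empty vector, 4 were called with no filter, 2 with DESeq2 and 3 with limma at a pseudocount of 0.1. With only the groups compared, 0 of 3 tested members were called (sum 7.48). For DMSO against untreated, 3 of 8 were called with no filter (sum -2.87). With only the groups compared, and with only the line's libraries, 3 of 3 tested members were called. Offsets in the line's libraries called 2. For estradiol against DMSO, 1 was called with no filter (sum 2.81) and 2 with only the groups compared or only the line's libraries. For estradiol against untreated, 1 was called with no filter, the 1 CPM filter, DESeq2, all 3 limma settings, only the groups compared, only the line's libraries, and both fits with offsets. For the vector effect between lines, 3 were called with no filter (sum -2.87), 1 with DESeq2, 4 with each limma setting (sum -4.28, -3.64 at a pseudocount of 0.1, and -4.28 unfiltered) and 1 with offsets. For the ERB effect between lines, 1 was called with DESeq2, 4 with limma at a pseudocount of 1 (sum 4.89, filtered or not) and 2 at 0.1, and the sum was 3.56 with no filter.

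Leaving out 1 library at a time, members called ran from 3 to 5 between parental lines (sum -11.43 to -9.06), 4 to 6 for empty vector against parental SW480 (-5.65 to -3.01), 1 to 4 for ERB against empty vector (4.94 to 7.06), 0 to 3 for ERB against parental (0.84 to 2.6), 0 to 4 between empty vector lines (5.96 to 8.15), 1 to 4 between ERB lines (10.57 to 11.58), 0 to 0 for DMSO against untreated (-3.29 to -2.36) and 0 to 1 for the vector effect between lines (-4.24 to -1.6). The counts were 0 in each of the other comparisons, with the sum at 2.6 to 3.11 for estradiol against DMSO, -0.49 to 0.45 for estradiol against untreated, -1.99 to -0.18 for empty vector and 1.52 to 2.45 for ERB in SW620, and 2.91 to 5.02 for the ERB effect between lines. Groups of 2 and few reads limit SW620 values of all members but CST3 and CSTB.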
